A study of Homo sapiens with 18 samples.

Results

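The 12 libraries whose codes begin with D1221 compare MDA-MB-231 cells in which RagC was silenced with cells given a control siRNA, and the pooled effect of both RagC siRNAs is described here across all expressed genes. MDA-MB-231 is an established human breast cancer line of the triple-negative, mesenchymal type, labelled as wild type in every group. Cells were lipofected for 72 hours with a control siRNA (siCtrl, 4 libraries), with a first siRNA against RagC (siRagC1, 4 libraries) or with a second one (siRagC2, 4 libraries), and total RNA was sequenced. The 8 RagC libraries were pooled as knock-down by the code prefix and the siRNA label alone. With the 4 controls they make 12 of the 18 libraries of the series, and the other 6 (2 per siRNA) carry codes of a second series, D1103. The labels number the libraries as biological replicates 3 to 6 but do not tie them to separate cultures or days; p-values therefore reflect the spread among these libraries, part of which may be technical. Everything was measured in 1 cell line, and fewer cells of a kind and less RNA per cell cannot be told apart in such bulk samples.

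RagC, encoded by RRAGC, is a small GTPase that pairs with RagA or RagB on the lysosomal surface. The pair recruits the growth-controlling kinase complex mTORC1 when amino acids are plentiful, and it also presents the transcription factors TFEB, TFE3 and MITF to mTORC1, which keeps them out of the nucleus. These factors are known for driving genes of the lysosome, while mTORC1 is known for promoting ribosome production, translation and nucleotide synthesis. The study's title places the work around repressed mTORC1, TFEB and the breakdown of extracellular matrix by breast cancer cells.

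The D1221 libraries held between 14.8 M and 71.6 M counts. The 4 controls lay between 19 M and 21.6 M, and the 3 libraries over 30 M were all knock-down libraries. siCtrl replicate 6 stood apart on the first principal component (39.0, against -11.8 to 7.54 in the other libraries), and siRagC1 replicate 4 on the second (-30.7) with 2.55% of its counts from mitochondrially encoded genes, against 4.08% to 4.94% elsewhere. The 10 markers listed for the cell line were all present, with a summed level of 9918 to 10462 CPM (counts scaled by library size after TMM correction) in controls and 9956 to 10484 in knock-down libraries. Luminal epithelial markers reached 1 CPM for 6 of 10 genes (summed 269 to 427 and 299 to 442), fibroblast markers for 2 of 9 (28.4 to 45.1 and 27.0 to 69.1) and endothelial markers for 1 of the 6 found (4.42 to 5.26 and 4.90 to 6.75, with CLDN5 and EMCN at 0). Blood and immune markers reached it for 0 of 10 genes (1.47 to 1.91 and 0.732 to 1.53), and CD3E and MS4A1 were at 0 in all 12 libraries.

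RRAGC fell in every knock-down library. With siCtrl it stood at 62.8, 62.6, 61.2 and 61.7 CPM in replicates 3 to 6. With siRagC1 it stood at 32.1, 25.5, 23.5 and 32.2 CPM, and with siRagC2 at 41.1, 30.9, 32.8 and 22.1 CPM. The groups did not overlap, and the spread among knock-down libraries was far wider than that among controls (SD 6.16 against 0.767 CPM). The remaining level was 48.4% ± 9.93 of the control mean (SD, n = 8), and the log2 fold change was -1.03 ± 0.12 (SE; edgeR quasi-likelihood test, Benjamini-Hochberg adjusted p = 0.00465). A 2-sided exact permutation test over the 12 libraries gave p = 0.00202, the smallest that the 495 arrangements allow. In the D1103 libraries 27.9% ± 6.19 remained (SD, n = 4), with a log2 fold change of -1.83 (adjusted p = 0.0181). Knock-down libraries lay between 35.5% and 66.2% in D1221 and between 19.1% and 33.5% in D1103, so the series did not overlap. The difference between the series had an unadjusted p of 0.00319 but did not pass after adjustment over all genes. The adjusted p of the D1221 change rose above 0.05 without siCtrl replicate 6 (0.0519) and without replicate number 4, 5 or 6 (0.0553, 0.146 and 0.0784), while the fold change stayed between -1.15 and -0.99 under every omission of a library or replicate number.

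Over all 15016 genes tested, 9 passed an adjusted p under 0.05 (0.0599%): 7 rose and RRAGC and PSAT1 fell. All 9 had knock-down libraries entirely on 1 side of the controls, as did 0.806% of all tested genes upward and 0.786% downward. At an unadjusted p under 0.05, here called nominal, 829 genes (5.52%) were higher and 710 (4.73%) lower. Changes were small: the median of the absolute log2 fold change was 0.07, and the median change itself 0.01. DESeq2 passed 112 genes, 83 higher and 29 lower, 8 of them among the 9 of edgeR. The count of 9 depended on single libraries, with a range of 0 to 12: it was 0 without siCtrl replicate 6, 1 without siCtrl replicate 3, siCtrl replicate 5 or siRagC1 replicate 5, 4 without siCtrl replicate 4 and 5 without siRagC2 replicate 3. Without replicate numbers 3, 4, 5 and 6 in all groups it was 1, 1, 0 and 8. All 9 kept their direction in each of these fits. Since their groups did not overlap, leaving out libraries could hardly turn it, so this is no sign of stability.

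ATP6V0D2, an alternative d subunit of the proton pump that acidifies lysosomes, rose from a low level. It stood at 1.89, 2.47, 1.91 and 1.73 CPM in the controls, and between 3.52 and 6.38 CPM (median 4.37) in the 8 knock-down libraries. The lowest knock-down library thus lay above the highest control. The log2 fold change was 1.12 ± 0.17 (SE, edgeR adjusted p = 0.0197), with 1.2 for siRagC1 and 1.03 for siRagC2, and the D1103 libraries gave 1.19 (adjusted p = 0.234). SLC37A2, a sugar phosphate exchanger of the endoplasmic reticulum, rose from 57.9, 60.6, 58.7 and 54.0 CPM to between 70.3 and 87.8 CPM (median 75.2). Its log2 fold change was 0.43 ± 0.06 (adjusted p = 0.0197), and the 2 siRNAs gave 0.45 and 0.40.

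KCP, a secreted modulator of bone morphogenetic protein signals, had the largest change among the 9 genes, at the lowest level. Controls stood at 0.598, 0.238, 0.477 and 0.314 CPM and knock-down libraries between 0.910 and 2.16 CPM (median 1.58). The log2 fold change was 1.84 ± 0.29 (SE, edgeR adjusted p = 0.0197). In D1103 KCP also rose, by 2.29 on the log2 scale (adjusted p = 0.000930), which makes it 1 of 5 genes that passed in both series. DESeq2 gave KCP no adjusted p in D1221. limma-voom did not pass KCP (adjusted p = 0.0642), ATP6V0D2 or VAT1.

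TIMP2, an inhibitor of matrix metalloproteases that also takes part in activating MMP2 at the cell surface, rose at a high level. It stood at 572, 554, 564 and 522 CPM in the controls and between 626 and 682 CPM (median 640) in knock-down libraries. The gap between the groups was narrow, and the log2 fold change of 0.23 ± 0.04 (SE, edgeR adjusted p = 0.0300) lay under a 1.2-fold change. VAT1, a membrane-associated protein of the quinone oxidoreductase family, rose from 341, 344, 341 and 302 CPM to between 364 and 429 CPM (median 407), with a log2 fold change of 0.28 ± 0.05 (adjusted p = 0.0356). Both also passed in D1103, with log2 fold changes of 0.27 (adjusted p = 0.0328) for TIMP2 and 0.37 (adjusted p = 0.0175) for VAT1.

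PIM1, a serine/threonine kinase of cell survival, rose from 31.5, 32.2, 31.5 and 29.1 CPM to between 37.7 and 48.0 CPM (median 43.0). Its log2 fold change was 0.46 ± 0.07 (SE, edgeR adjusted p = 0.0186), and 0.40 in D1103 (adjusted p = 0.0184). TNFRSF1B, a receptor for tumour necrosis factor, rose from 18.4, 19.3, 18.2 and 16.1 CPM to between 22 and 24.3 CPM (median 23.1). The knock-down libraries were close to one another, and the log2 fold change was 0.36 ± 0.06 (adjusted p = 0.0197). D1103 gave 0.37 for TNFRSF1B, short of the threshold (adjusted p = 0.350).

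PSAT1, which encodes phosphoserine aminotransferase of the serine pathway, was the gene that fell beside RRAGC. It stood at 91.0, 90.7, 86.3 and 96.1 CPM in controls and between 63.6 and 77.8 CPM (median 74.0) in knock-down libraries. The log2 fold change was -0.32 ± 0.05 (SE, edgeR adjusted p = 0.0197), with -0.28 for siRagC1, -0.36 for siRagC2 and -0.47 in D1103 (adjusted p = 0.0649). The plot of the 9 genes by library shows each of these values.

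**Figure D1:**
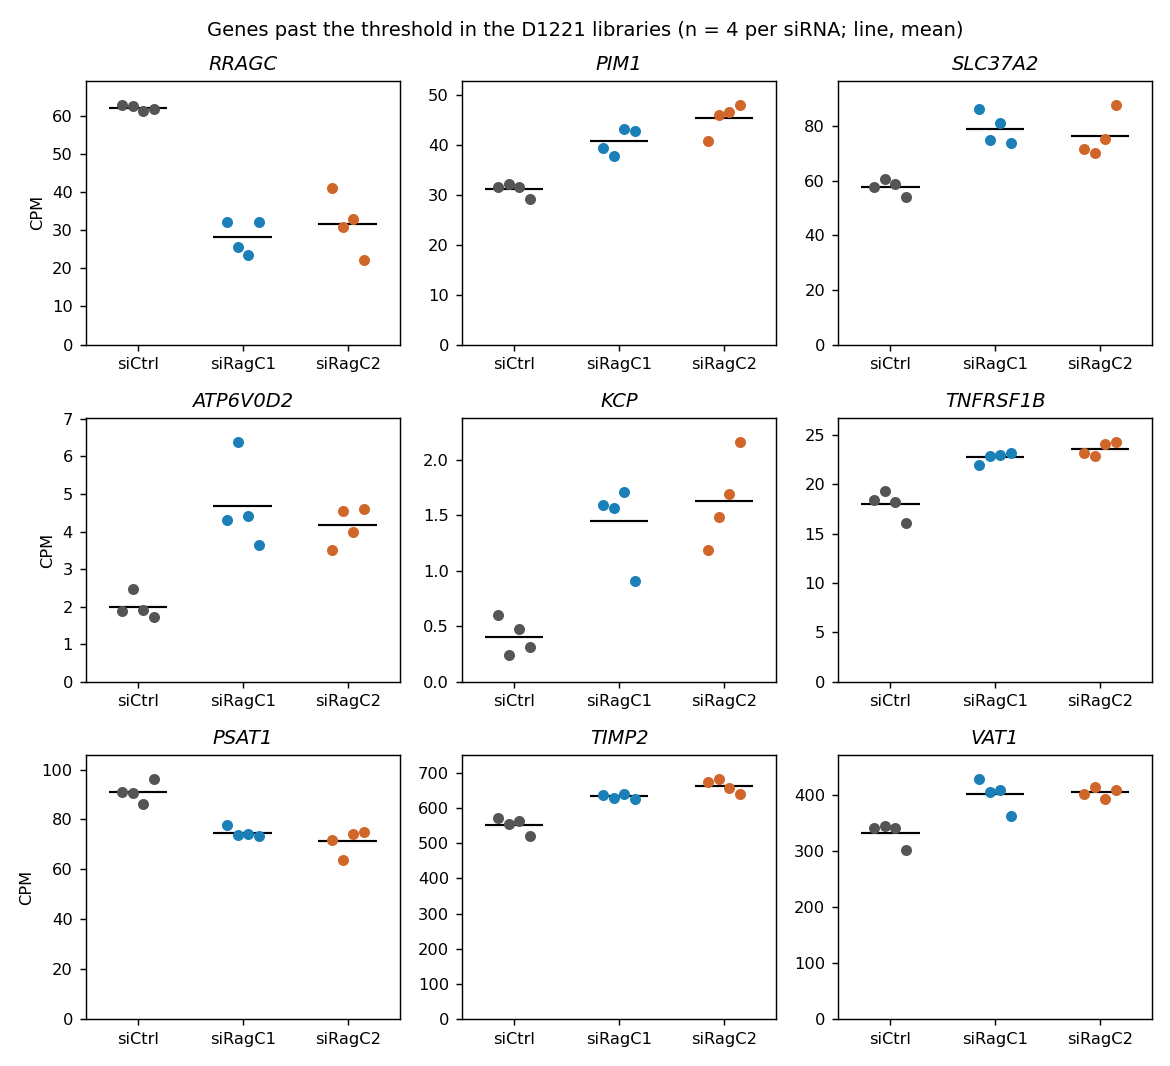
Each panel gives 1 of the 9 genes that passed an adjusted p under 0.05, with CPM on a vertical axis that starts at 0 and the siRNA on the horizontal axis; points are libraries (n = 4 per siRNA) and lines are means. In every panel the 8 knock-down libraries lie on 1 side of the 4 controls, in relative terms widest apart for RRAGC, ATP6V0D2 and KCP.

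Just beyond the threshold lay FTL (log2 fold change 0.37 ± 0.07, adjusted p = 0.0573) and CSPG4 (0.41 ± 0.07, adjusted p = 0.0630), next to VAT1 just inside it. FTL and FTH1 encode the light and heavy chains of ferritin, the iron store. FTL stood at 1090, 1124, 1021 and 888 CPM in controls and between 1179 and 1483 CPM in knock-down libraries, and FTH1 had 0.34 ± 0.07 (adjusted p = 0.108). Both have many near-identical copies in the genome, and how reads were divided among them was not stated for this table. Among genes below the controls, AMD1, an enzyme of polyamine synthesis, had -0.26 ± 0.05 (adjusted p = 0.0960), HBEGF, a ligand of the EGF receptor, -0.24 ± 0.05 (adjusted p = 0.108), and the long non-coding MIR100HG -0.27 ± 0.06 (adjusted p = 0.115). Knock-down and control libraries did not overlap for any of these 6 genes. They were named for small p in these same libraries, so this adds no separate support. Over all tested genes 0.806% lay wholly above the controls and 0.786% wholly below them.

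No gene passed the threshold between the 2 siRNAs in the 12 libraries. With the same 4 controls, siRagC1 alone passed 1 gene, RRAGC, and 997 genes nominally; siRagC2 alone passed 1, PIM1, and 1420 nominally. Between siRagC1 and siRagC2, edgeR passed 0 genes (365 at an unadjusted p under 0.05), and DESeq2 also passed 0 (336); without replicate 6 of each group edgeR passed 25. RRAGC had log2 fold changes of -1.12 with siRagC1 and -0.95 with siRagC2, and KCP 1.79 and 1.90. A count of 0 does not show that the siRNAs act alike.

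The partners of RRAGC and the factors around it did not pass the threshold. RRAGA, which encodes the partner RagA, stood at 79.5, 82.6, 79.8 and 72.7 CPM in controls and between 72.6 and 84.4 CPM in knock-down libraries, with a log2 fold change of -0.002 ± 0.05 whose sign turned with the scaling (0.001 with upper-quartile factors). RRAGB, which encodes RagB, had 0.16 ± 0.07 (edgeR adjusted p = 0.472), and RRAGD, the paralog of RRAGC, 0.18 ± 0.12 (adjusted p = 0.633). Among the 11 genes of the Rag and Ragulator list, 8 had positive values, against 52.9% of all tested genes. At an unadjusted p under 0.05, 2 were higher (18.2%, against 5.52% of all genes) and 1, RRAGC, was lower (9.09%, against 4.73%). The number higher ran from 0 to 3 over omissions of 1 library. The list median of 0.10 became 0.04 without siCtrl replicate 6.

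Folliculin, encoded by FLCN, is the GTPase-activating protein that switches RagC to the form that binds the MiT/TFE factors, and FNIP1 and FNIP2 bind folliculin. FLCN stood at 47.6, 44.5, 44.7 and 41.2 CPM in controls and between 43.9 and 56.0 CPM in knock-down libraries, with a log2 fold change of 0.17 ± 0.06 (edgeR adjusted p = 0.353). FNIP1 had 0.20 ± 0.07 (adjusted p = 0.327) and FNIP2 0.04 ± 0.07 (adjusted p = 0.866). In D1103, FLCN (0.35, adjusted p = 0.00979) and FNIP1 (0.46, adjusted p = 0.00509) rose. The transcripts of the factors themselves showed no call: TFEB stood at 7.82, 7.17, 8.11 and 5.75 CPM in controls and between 5.96 and 7.95 CPM in knock-down libraries (0.005 ± 0.10, adjusted p = 0.992). TFE3 had -0.01 ± 0.06 (adjusted p = 0.953) and MITF -0.20 ± 0.07 (adjusted p = 0.337).

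Genes of the lysosome stood above the controls as a group, by small amounts and mostly without passing the threshold one by one. Of 50 tested hydrolases and their activators (51 listed), 45 had positive values, 25 were nominally higher (against 5.52% of all genes) and 2 nominally lower, ARSB and CTSC. The median log2 fold change was 0.13, against 0.01 over all genes. In 9 members the knock-down libraries lay wholly above the controls, as they did in 0.806% of all tested genes. Of 36 tested membrane proteins (39 listed), 32 were positive, 13 nominally higher (36.1%), 0 nominally lower, and the median was 0.11. The 20 tested genes of the proton pump (23 listed) had a median of 0.04, with 4 nominally higher, 2 nominally lower (0 to 2 over omissions of 1 library) and ATP6V0D2 past the threshold.

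The lists were drawn up with earlier results on these data known, and the members named here beyond CTSD, CTSL, ASAH1 and NPC1 were chosen after their values were seen. CTSD, an aspartic protease of the lysosome, stood at 574, 557, 544 and 405 CPM in controls and between 579 and 729 CPM (median 717) in knock-down libraries, with a log2 fold change of 0.42 ± 0.08 (SE, edgeR adjusted p = 0.108). CTSL, a cysteine protease, stood at 89.4, 88.8, 91.3 and 88.2 CPM in controls and between 97.3 and 112 CPM in knock-down libraries (0.22 ± 0.04, adjusted p = 0.108). ASAH1, which splits ceramide, stood at 68.9, 69.4, 69.2 and 69.5 CPM in controls and between 76.1 and 94.0 CPM in knock-down libraries (0.28 ± 0.06, adjusted p = 0.120). In each of these 3, named for small p, the lowest knock-down library lay above the highest control, as in 0.806% of all tested genes. For CTSD and CTSL siCtrl replicate 6 was the lowest control.

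Other hydrolases with a nominal difference were GM2A, an activator of ganglioside breakdown (0.22 ± 0.05, edgeR adjusted p = 0.160), CTSA, a protective protease (0.19), NEU1, a sialidase (0.29), and CTSB, a cysteine protease (0.22). The adjusted p was between 0.160 and 0.215 for these 4. Among membrane proteins, NPC1, which exports cholesterol from the lysosome, stood at 216, 213, 208 and 213 CPM in controls and between 226 and 287 CPM (median 268) in knock-down libraries, with 0.30 ± 0.06 (adjusted p = 0.111). Its soluble partner NPC2 had 0.33 ± 0.08, SLC17A5, a sialic acid exporter, 0.21 ± 0.06, and LAMP1, an abundant structural protein of the lysosomal membrane, 0.10 ± 0.05. Of these, the groups did not overlap for GM2A, CTSA, NEU1, NPC1, NPC2 and SLC17A5. Over all tested genes 0.806% lay wholly above the controls. NPC1 was named for small p and the others with their values in view, so this adds no separate support.

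Library by library, the median member of the hydrolase list lay between -0.08 and 0.05 in the controls and between 0.06 and 0.21 in knock-down libraries, on a log2 scale relative to the mean of the controls. For membrane proteins these ranges were -0.04 to 0.03 and 0.06 to 0.16. The groups did not overlap in either list, and siCtrl replicate 6, the library apart on the first principal component, gave the lowest hydrolase value. Leaving out any 1 library moved the hydrolase median to between 0.12 and 0.15 with 21 to 28 members nominally higher, and the membrane median to between 0.09 and 0.13 with 9 to 14. Without both siCtrl replicate 6 and siRagC1 replicate 4 they were 0.10 and 0.10, and without the 3 libraries over 30 M counts 0.14 and 0.11.

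**Figure D2:**
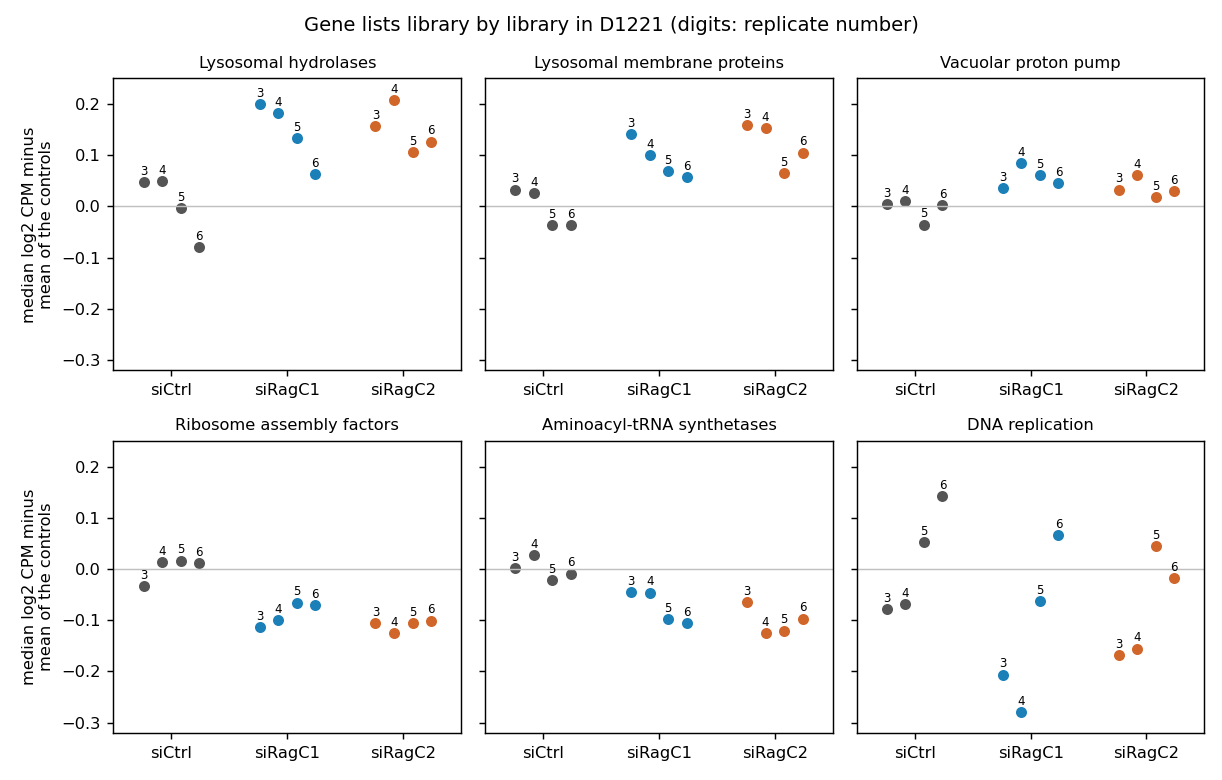
Each panel gives 1 gene list, with the median over its members of log2 CPM minus the mean of the 4 controls on the vertical axis and the siRNA on the horizontal axis; points are single libraries and digits their replicate numbers. Knock-down libraries lie wholly above the controls in the 3 lysosomal lists and wholly below them for ribosome assembly factors and aminoacyl-tRNA synthetases, while both groups overlap for DNA replication.

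TFEB, TFE3 and MITF bind palindromic sites of the E-box type, of which TCACGTGA is a longer form. RefSeq promoter windows (GRCh38.p14, 250 bases before to 50 after the start, first window of each gene) were at hand for 76 of the 106 tested members of the 3 lysosomal lists (71.7%), too few for a comparison of shares. TCACGTGA occurs on either strand in 1.95% of the windows of 10886 tested genes, and no share is given for the lysosomal members. The windows of 3 genes are shown because they belong to lysosomal genes that were nominally higher and hold that motif, in capitals; they were chosen by smallest p after values were seen. CTSA (0.19) holds it 26 bases before the start. CLN3, a lysosomal membrane protein measured at about 1 CPM (0.54 ± 0.20, edgeR adjusted p = 0.362), holds it 2 bases before the start, and GAA, which breaks down glycogen (0.25 ± 0.10, adjusted p = 0.394), holds it at 2 places, the first 77 bases before.
CTSA, chr20:45891085-45891384, plus strand: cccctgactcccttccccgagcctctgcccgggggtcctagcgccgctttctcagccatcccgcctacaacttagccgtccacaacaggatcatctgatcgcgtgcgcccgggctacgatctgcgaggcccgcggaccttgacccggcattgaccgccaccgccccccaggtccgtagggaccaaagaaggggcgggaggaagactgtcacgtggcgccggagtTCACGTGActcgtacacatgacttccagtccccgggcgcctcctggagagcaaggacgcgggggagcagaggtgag
CLN3, chr16:28492025-28492324, minus strand: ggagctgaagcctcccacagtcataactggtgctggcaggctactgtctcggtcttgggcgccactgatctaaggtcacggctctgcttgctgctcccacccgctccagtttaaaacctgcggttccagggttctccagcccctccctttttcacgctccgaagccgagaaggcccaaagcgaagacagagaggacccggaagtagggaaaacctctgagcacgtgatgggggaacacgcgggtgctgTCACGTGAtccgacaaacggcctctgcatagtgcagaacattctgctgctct
GAA, chr17:80101331-80101630, plus strand: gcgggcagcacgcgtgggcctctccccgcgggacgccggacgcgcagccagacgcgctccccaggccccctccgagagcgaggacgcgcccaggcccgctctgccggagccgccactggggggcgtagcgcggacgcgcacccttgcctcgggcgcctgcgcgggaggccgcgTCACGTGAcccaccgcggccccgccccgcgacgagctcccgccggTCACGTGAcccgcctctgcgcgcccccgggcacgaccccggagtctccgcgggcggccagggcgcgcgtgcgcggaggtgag
A match is a description of these letters and not of binding. Lysosomal members with TCACGTGA in their window had a median log2 fold change of 0.121, and those with a window without it 0.118. Of the 9 genes past the threshold 5 had a window: that of RRAGC holds CACGTG (in 1092 of the 10886 windows), TGACTCA (357) and TGACNNNGC (1655), and those of PIM1, KCP, TNFRSF1B and PSAT1 hold none of the motifs searched, which also included TTTCCCGC, TTTGGCGC and TGATGCAAT.

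Of 44 tested autophagy genes 6 were nominally higher (13.6%, against 5.52% of all genes) and 2 lower, and the median was 0.02 (0.0086 without siCtrl replicate 5). The 6 became 2 without siCtrl replicate 6 and 3 without siRagC2 replicate 4. SQSTM1, the receptor p62 that carries cargo to autophagosomes, stood at 721, 702, 604 and 489 CPM in controls and between 717 and 975 CPM (median 882) in knock-down libraries, with a log2 fold change of 0.46 ± 0.10 (edgeR adjusted p = 0.154), and its groups overlapped. For genes of lysosome positioning, fusion and exocytosis the median was 0.05 (0.03 without siCtrl replicate 6), with 6 of 39 nominally higher (15.4%).

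Genes that build ribosomes stood below the controls. Of 68 tested ribosome assembly factors (69 listed), 61 had negative values, 31 were nominally lower (45.6%, against 4.73% of all genes), 0 nominally higher, and the median log2 fold change was -0.09. None passed the threshold singly. RRP15, a factor of pre-60S assembly, stood at 56.9, 58.4, 54.9 and 57.2 CPM in controls and between 43.7 and 55.8 CPM (median 47.6) in knock-down libraries (-0.23 ± 0.06, edgeR adjusted p = 0.179). LTV1, a factor of small-subunit maturation, stood at 41.6, 44.0, 43.6 and 45.5 CPM in controls and at 37.8 ± 1.94 CPM (mean ± SD, n = 8) in knock-down libraries (-0.21 ± 0.05, adjusted p = 0.185). RRP15 overlapped slightly between groups and LTV1 did not. DDX21, a nucleolar helicase, and GNL3, also known as nucleostemin, had -0.18 ± 0.05 and -0.15 ± 0.04 and were singled out after their values were seen.

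By library, the median assembly factor lay between -0.03 and 0.02 in controls and between -0.12 and -0.07 in knock-down libraries, without overlap. Leaving out any 1 library kept the list median between -0.11 and -0.09 with 24 to 33 members nominally lower. RNA polymerase I and III genes and their regulators had 7 of 32 nominally lower (21.9%, against 4.73% of all genes) and 0 higher. The 7 became 4 without siCtrl replicate 4. POLR1B, a large subunit of polymerase I, had -0.18 ± 0.05 (edgeR adjusted p = 0.237). The ribosomal proteins themselves had mostly values of the other sign: 65 of 77 were positive, and the median was 0.05. Of the 77, 6 were nominally higher (7.79%, against 5.52% of all genes) and 0 lower. The median became 0.03 without siRagC1 replicate 4, which had the highest value of this list by library (0.13). The 6 became 1 without siCtrl replicate 6, 2 without siRagC1 replicate 3 or siRagC2 replicate 6, 3 without siRagC1 replicate 4, 11 without siRagC1 replicate 6 and 15 without siCtrl replicate 4. In D1103 the median of the ribosomal proteins was -0.03.

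Lists for the supply of amino acids and nucleotides differed in their counts. Over all tested genes 4.73% were nominally lower and 5.52% higher. Of 23 aminoacyl-tRNA synthetases and their scaffold proteins 21 were negative, 7 nominally lower (30.4%) and 1 higher, with a median of -0.09; the 7 became 4 without siCtrl replicate 4 and 11 without siCtrl replicate 6. GARS1, which charges glycine, had -0.16 ± 0.04 (edgeR adjusted p = 0.240). Among 28 tested genes of the ATF4 response, which serves amino acid supply, 11 were positive and 17 negative, with a median of -0.07 that became -0.02 without siCtrl replicate 4. In this list 5 genes were nominally lower (17.9%), PSAT1 among them, and 3 without siCtrl replicate 4. GDF15, a stress cytokine named after its value was seen, was nominally higher (0.81 ± 0.19, edgeR adjusted p = 0.182). CEBPG, a partner of ATF4, had -0.19 ± 0.05 (adjusted p = 0.195), and MTHFD2, a mitochondrial folate enzyme, -0.20 ± 0.05 (adjusted p = 0.205). Of 21 genes of purine and pyrimidine synthesis 5 were nominally lower (23.8%) and 0 higher, and the 5 became 2 without siCtrl replicate 6. CTPS1, which makes CTP, had -0.21 ± 0.06 (edgeR adjusted p = 0.247). Amino acid transporters had 1 of 18 in each direction, and 0 higher and 4 lower without siCtrl replicate 6.

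DNA replication genes had the lowest list median of all, -0.11, with 55 of 60 negative and 9 nominally lower (15.0%, against 4.73% of all genes). First among them was MCM6, a subunit of the replicative helicase (-0.19 ± 0.06, edgeR adjusted p = 0.285). This list moved with 1 library. By library its median lay between -0.08 and 0.14 in controls, highest in siCtrl replicate 6, and between -0.28 and 0.07 in knock-down libraries, lowest in siRagC1 replicate 4. Without siCtrl replicate 6 the list median was -0.06 with 2 members nominally lower, while 15 were without siCtrl replicate 3 and 16 without siRagC1 replicate 6. Mitotic genes had 1 of 49 nominally lower and a median of -0.02, which turned to 0.06 without siCtrl replicate 6 and to 0.007 without siRagC1 replicate 3, and was -0.09 without siCtrl replicate 3.

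Genes of the extracellular matrix, which the title of the study names, gave a mixed picture. Of 38 tested matrix proteases and inhibitors 7 were nominally higher (18.4%, against 5.52% of all genes) and 2 lower. The median was 0.08 (0.05 after thinning to equal depth), and TIMP2 passed. The 7 became 3 without siCtrl replicate 3, 4 without siCtrl replicate 5, siCtrl replicate 6, siRagC2 replicate 4 or siRagC2 replicate 5, and 5 with DESeq2. MMP14, a membrane-anchored collagenase, had 0.14 ± 0.07 (edgeR adjusted p = 0.487), MMP17 0.47 ± 0.17 (adjusted p = 0.355) and ADAMTS1, a secreted protease, -0.32 ± 0.12 (adjusted p = 0.387); these 3 were named after their values were seen. Matrix proteins had 3 of 39 nominally higher and 4 lower with a median of 0.05, which turned to -0.04 with 0 higher without siCtrl replicate 6, and TNC, the matrix glycoprotein tenascin C, had -0.17 ± 0.06 (adjusted p = 0.337). Integrins and focal adhesion genes had 2 of 34 in each direction, and CAV1, the main caveola protein, had -0.16 ± 0.04 (adjusted p = 0.172).

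KLHL24, listed with the FOXO targets and insulin signalling genes, stood at 25.2, 24.1, 22 and 27.0 CPM in controls and between 29.5 and 42.1 CPM in knock-down libraries (0.43 ± 0.10, edgeR adjusted p = 0.154), without overlap. That list had 3 of 22 nominally higher (13.6%, against 5.52% of all genes), 0 lower and a median of 0.10, which became 0.05 without siCtrl replicate 6; 5 were higher without siCtrl replicate 3 or siRagC1 replicate 5. The plot of list medians sets all 36 lists side by side.

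**Figure D3:**
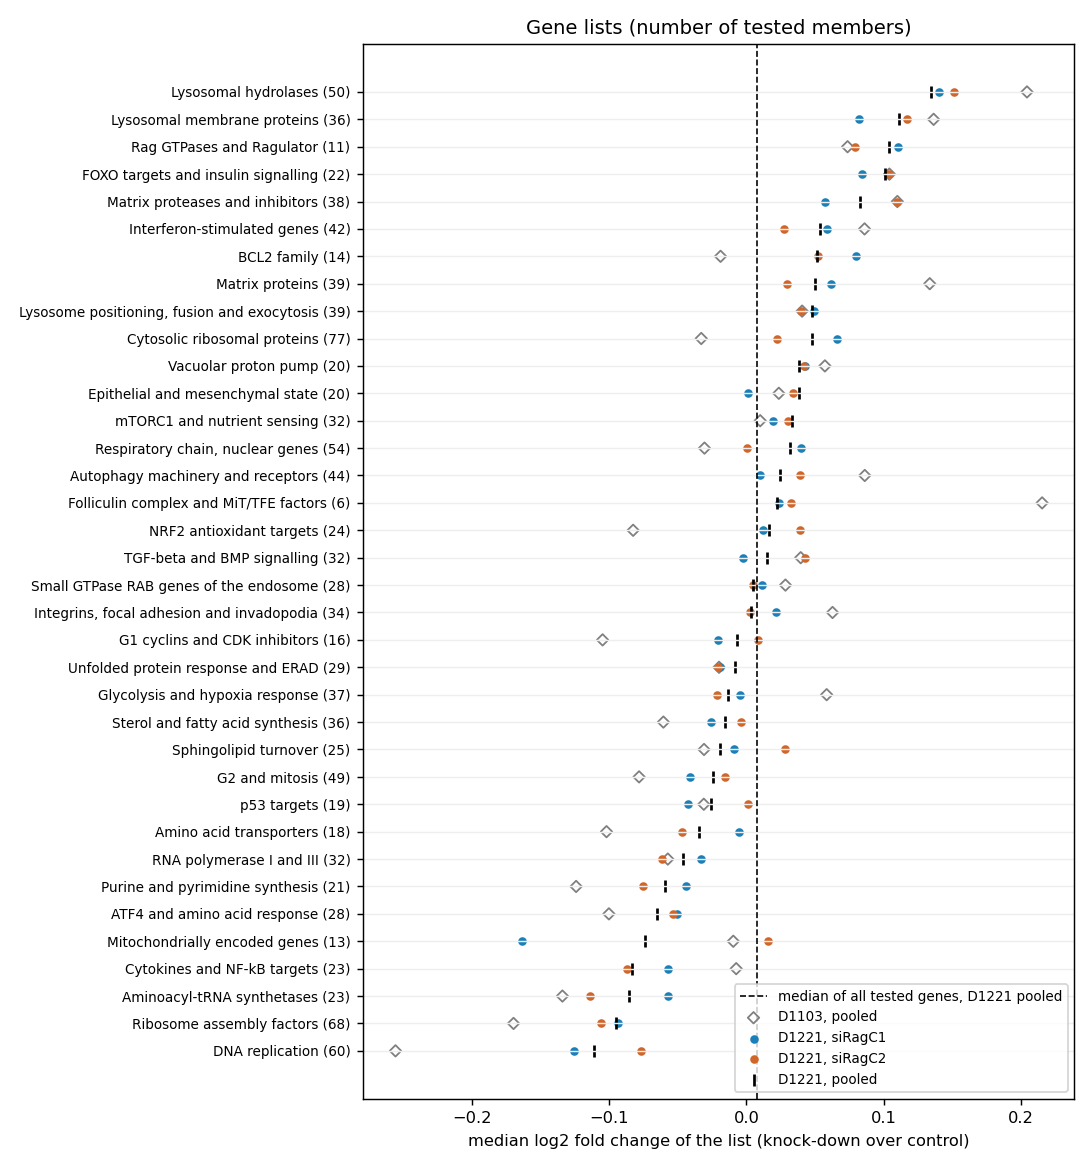
Horizontal positions give the median log2 fold change of each of 36 gene lists, knock-down over control, in D1221 pooled, with each siRNA alone and in D1103; the dashed line is the median of all tested genes in D1221. In D1221 pooled, lysosomal hydrolases and membrane proteins lie farthest right, and DNA replication and ribosome assembly farthest left. With siRagC1 alone the Rag and Ragulator list (0.11) lies right of membrane proteins (0.08), and mitochondrially encoded genes lie farthest left (-0.16). With siRagC2 alone aminoacyl-tRNA synthetases lie farthest left (-0.11). The D1103 medians lie farther out than the pooled D1221 ones for hydrolases (0.20), ribosome assembly (-0.17) and DNA replication (-0.26).

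The D1103 libraries share no sample with the D1221 ones, so their calls can be followed into D1221. There, 421 of 16175 tested genes passed (2.6%; 238 higher, 183 lower), though 44 and 45 when either of their 2 replicate numbers was left out. Of the 238 higher genes, 233 (97.9%) had a positive value in D1221 and 121 (50.8%) were nominally higher. For 39 of them the groups did not overlap, and 4 passed. Over all tested genes 52.9% were positive, 5.52% nominally higher and 0.806% wholly above the controls. Of the 183 lower genes, 166 (90.7%) had a negative value, 59 (32.2%) were nominally lower, 10 did not overlap and 1 passed. Over all tested genes 4.73% were nominally lower and 0.786% wholly below the controls. No gene of the 421 was nominal in the opposite direction.

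The D1221 values of these genes were smaller. Their median log2 fold change was 0.19 in D1221 against 0.39 in D1103 for the higher genes, and -0.11 against -0.34 for the lower ones. D1103 chose these genes, so its own values are a description only. Over all 14990 genes tested in both, Pearson's r between the 2 sets of log2 fold changes was 0.39, across genes, which are not independent. Tested directly, the effect differed between the series in 0 genes by edgeR (607 at an unadjusted p under 0.05) and in 0 by DESeq2 (649). The genes that passed in both series were RRAGC, PIM1, KCP, TIMP2 and VAT1. For SLC37A2, ATP6V0D2, TNFRSF1B and PSAT1, which passed in D1221, D1103 gave values of the same sign.

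**Figure D4:**
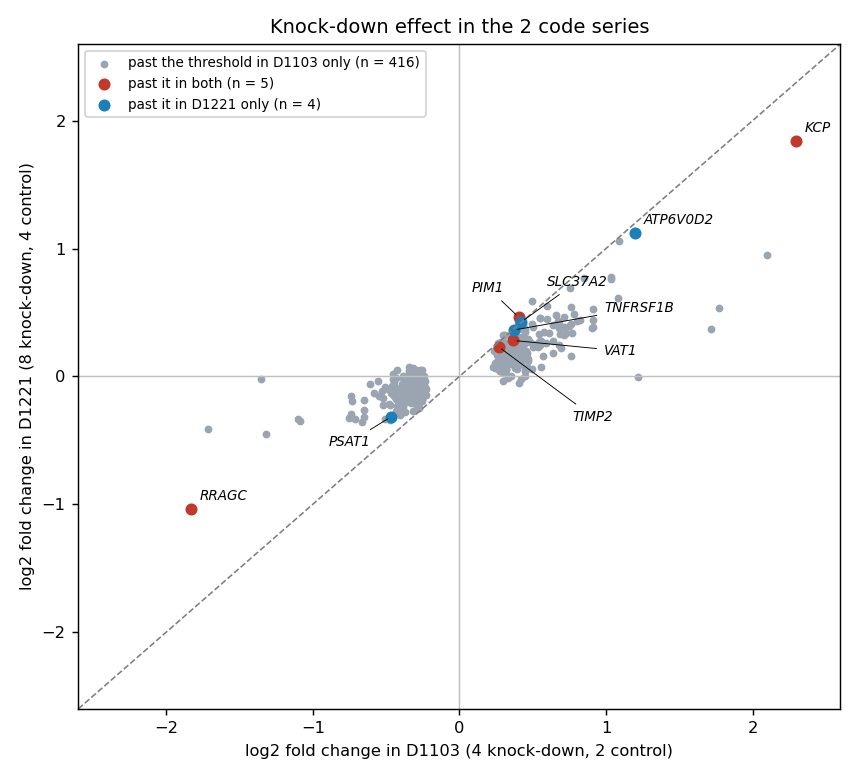
Each point is a gene, with its log2 fold change in D1103 (4 knock-down and 2 control libraries) on the horizontal axis and in D1221 (8 and 4) on the vertical axis; the dashed diagonal marks equal values. Most of the genes that passed in D1103 lie on the same side of 0 in D1221 but nearer to it, RRAGC among them. PIM1, SLC37A2, ATP6V0D2, TNFRSF1B and TIMP2 lie near the diagonal. These passed in D1221, so their D1221 values are a description only.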

How the data were processed

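The file holds raw counts per gene as the authors deposited them, for 57820 identifiers, 51996 of them with a symbol. The submitters' processing notes name cutadapt 0.6.2, STAR 2.7.6a and GRCh37; counting tool, strand setting and annotation were not found in them. Libraries used 500 ng of RNA per the labels' protocols. Groups, replicate numbers and code series come from the labels, which do not say what the series stand for.

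The main fit used edgeR 4.0.16 in R 4.3.3 on the 12 D1221 libraries, with TMM factors, the filterByExpr filter on the 3 groups, a robust quasi-likelihood F test and 1 term for knock-down. The filter left 15016 genes, 14573 with a symbol, and the threshold was an adjusted p (Benjamini-Hochberg, over all of them) under 0.05 without a minimum fold. The 6 D1103 libraries were fitted alone, and all 18 with a series term and its interaction. Counts within a group varied between 2.75 and 32.3 times the counting variance, so no library duplicated another.

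The members and the 36 lists (1222 genes, 1209 matched, 1149 tested) were chosen with earlier results of these data known. Lists are given by counts and medians, with no test. The rule for named genes took RRAGC, its paralogs, the folliculin complex and MiT/TFE factors; all genes past the threshold, then those of smallest p up to 15 in each direction, at a mean of at least 5 CPM; and of each list up to 4 called members, or the 1 of smallest p. Names outside this rule were picked with their values in view, and the text says where. Results of some genes on the lists are not reported here. The rule for promoters asked for called genes and found none, so the 3 shown were also picked in that way. Same-numbered libraries did not count as pairs in the main fit. The labels number replicates alike across the siRNAs but do not state pairs. Residual correlations between same-numbered libraries ran from -0.08 to 0.32, which does not settle whether they are pairs. The count depends on this choice, with 59 genes under the replicate block against 9 without it. As alternatives, the fit was repeated with RLE or upper-quartile factors, with no filter or 5 CPM in 4 libraries, with DESeq2 1.42.0 or limma-voom 3.58.1, with the replicate block, with the mean of both siRNA effects, with all 18 libraries, at an adjusted p under 0.01, with a fold over 1.2, and without each replicate number or library. Chosen after seeing the data were 3 more: without both siCtrl replicate 6 and siRagC1 replicate 4, without the 3 knock-down libraries over 30 M counts, and all libraries thinned to the lowest total.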

Additional observations from a re-analysis of the deposited data

Results flagged for a closer look

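Of 72 groups of 4 libraries examined for 1 value far from the other 3 (9 genes past the threshold, 9 other named genes and 6 library measures, in 3 groups each), 6 were marked, where chance marks about 1 group in 20. VAT1 stood at 302 CPM in siCtrl replicate 6, against 341 to 344 CPM in the other controls, and TFE3 at 161 CPM there, against 190 to 192 CPM. siCtrl replicate 3 lay at 1.43 on the second principal component, against 3.48 to 3.71 in the other controls. MITF stood at 43.7 CPM in siRagC1 replicate 6, against 35.7 to 37.0 CPM, and FLCN at 43.9 CPM in siRagC1 replicate 4, against 51.4 to 52.3 CPM. siRagC2 replicate 3 held 71.6 M counts, against 14.8 M to 21.6 M in the other libraries of its group.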

How the results depend on the processing

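The 9 genes kept their direction in every alternative that gave them a value, as did 47 further named genes. Both sets were picked for small p in these same libraries, so a kept direction is no separate support. Of the 47, 32 passed in at least 1 alternative, some with DESeq2 only, such as SQSTM1 and CAV1. The other Rag genes, the folliculin complex and the MiT/TFE factors are outside these 47. The pooled count of 9 (7 higher, 2 lower) became 26 (22 and 4) with no filter, 112 (83 and 29) with DESeq2, 5 (4 and 1) with all 18 libraries and 1 (0 and 1) at an adjusted p under 0.01. limma-voom passed 6, 4 of them higher. Chosen after seeing the data, it was 16 (12 and 4) without both siCtrl replicate 6 and siRagC1 replicate 4, where RRAGC had -0.996 and missed the threshold (adjusted p = 0.066), 5 (3 higher) without the 3 deep libraries, and 10 (1 lower) after thinning. RLE factors gave 10, upper-quartile factors 11, the stricter filter 7, the mean of both siRNA effects 8 and the minimum fold 8. With the replicate block it was 59 (50 and 9), all 9 genes among them; siRagC2 alone passed 15 with the block. A library's own number was its best match among the 4 libraries of another group in 12 of 24 cases, a hint from the data and not the design. Leaving out a replicate number or library gave 0 to 12 genes (0 to 10 higher, 0 to 3 lower), 0 to 22 for siRagC1, 0 to 18 for siRagC2, 0 to 25 between the siRNAs, 44 to 45 in D1103 and 0 for the difference between series; RRAGC ran from -1.15 to -0.99. DESeq2 passed 26 genes for siRagC1, 57 for siRagC2 and 738 in D1103. Values near 0 changed sign: RRAGA was 0.0012 with upper-quartile factors, 0.0022 with the stricter filter, 0.0010 with limma-voom and -0.0372 to 0.0249 over omissions; TFEB was -0.0917 without both libraries and -0.0864 to 0.0630 over omissions, TFE3 -0.0723 to 0.0245 and FNIP2 -0.0346 to 0.101. The cause was not tested in any of these. At equal depth after thinning, KCP (edgeR adjusted p = 0.00271) and ATP6V0D2 (adjusted p = 0.0449), both of low counts, remained past the threshold. PSAT1 was the only gene of the 9 that did not (adjusted p = 0.0649). It was also among those that missed the threshold with all 18 libraries (adjusted p = 0.0735) and without the 3 deep libraries (adjusted p = 0.128).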

Other observations

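Some genes with large changes in D1103 had D1221 values of varied size. The ones named here were chosen after their values were seen. SIGLEC15, a cell surface lectin, had log2 fold changes of 1.06 in D1221 and 1.09 in D1103, and SMPDL3B, a lipid-modulating phosphodiesterase, 0.76 and 1.04. ACP5, a lysosomal acid phosphatase, had 0.95 and 2.10, and IL11, a cytokine, -0.35 and -1.09. KIF26B, a kinesin family member, had -0.002 in D1221 and 1.22 in D1103, and SMPD3, a neutral sphingomyelinase, -0.02 and -1.35. The difference between the series had an unadjusted edgeR p of 0.000464 for KIF26B, 0.000727 for SMPD3 and 0.000436 for IL11. Since these genes were chosen with their values in view, these p-values are a description only. Of 15016 genes 607 had an unadjusted p under 0.05 for this difference, and 0 passed after adjustment.

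Mitochondrially encoded genes had a list median of -0.07 in D1221 with 0 of 13 nominally changed. By library the median reached -0.86 in siRagC1 replicate 4, the library with the lowest mitochondrial share, while it lay between -0.13 and 0.11 in the controls, and without that library the list median was 0.01. Nuclear genes of the respiratory chain had a median of 0.03.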
